A study of Homo sapiens with 12 samples.

Results

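The EGR and KLF transcription factors were followed through 10 genes, EGR1, EGR2, EGR3, KLF2, KLF4, KLF5, KLF6, KLF9, KLF10 and KLF11, named by symbol and found by Ensembl identifier among the 60675 genes of 2 count tables. All 10 were counted in total RNA, and 6 of them had enough counts in labelled RNA to be tested over a chase. The samples were 12 libraries of human melanoma cells. A375 is an established melanoma line with an activating BRAF mutation, and the MIR211 line (A375_211 in the labels) is A375 that overexpresses MIR211, from which the microRNA miR-211 is made, so both lines carry the A375 background and BRAF mutation. Cells grew in Tu medium with 2% serum. RNA-seq measured steady-state total RNA in 2 libraries per line, called a and b. BRIC-seq measured decay: cells took up 5-bromouridine (BrU) for 24 h, the label was then withdrawn, and BrU-containing RNA was recovered with an antibody in 1 library per line after 0, 1, 3 and 6 h. How the MIR211 line was made, and whether it is a clone or a pool, is not given in the sources used here. With a single line of each kind, an effect of miR-211 and any other difference between the lines cannot be told apart.

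EGR and KLF proteins bind GC-rich DNA through tandem zinc fingers. EGR1, EGR2 and EGR3 are immediate early genes: growth factor and stress signals acting through ERK, SRF and the ternary complex factors switch them on within minutes, and their mRNAs are known to be short-lived. The KLF genes act in growth arrest, differentiation and stress. KLF2 and KLF4 are induced by ERK5 and MEF2 signalling and are known from endothelium and pluripotent cells, KLF5 promotes proliferation in epithelia, KLF6 responds to injury, KLF9 is a glucocorticoid and thyroid hormone target, and KLF10 and KLF11 are TGF-beta inducible repressors that recruit the SIN3A co-repressor. In melanoma with mutant BRAF, constant ERK activity sustains many immediate early genes.

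Sequences were compared because the lines differ in a microRNA and because short AU-rich motifs in 3′ UTRs are a known feature of short-lived mRNAs. The genes these concern are EGR1 (ENSG00000120738, chr5:138465479-138469303, plus strand), KLF5 (ENSG00000102554, chr13:73054976-73077541, plus), KLF6 (ENSG00000067082, chr10:3775996-3785281, minus), KLF9 (ENSG00000119138, chr9:70384604-70414657, minus) and KLF11 (ENSG00000172059, chr2:10042849-10054836, plus). All sequences are RefSeq GRCh38.p14 or GENCODE hg38 reference sequence, written 5′ to 3′. The first is mature miR-211-5p (chr15:31065095-31065116, minus strand) with its seed, bases 2 to 8, in capitals. The 7-letter match to that seed, AAAGGGA, was sought on the transcript strand of the canonical 3′ UTR. KLF9 and KLF11 hold 1 match each, printed as 30-base sites with the match in capitals. The KLF9 site is at chr9:70386517-70386546 (minus strand) and the KLF11 site at chr2:10053078-10053107 (plus strand).
miR-211-5p: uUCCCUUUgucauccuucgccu
KLF9: tatgtagaaggAAAGGGAgctgaaatagga
KLF11: aggacctcttaAAAGGGAaaaataaatttt

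Of 19550 protein-coding genes with an annotated 3′ UTR, 17.3% hold the same 7 letters at least once. A match of letters is a description and shows no binding.

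Every member's 3′ UTR contained ATTTA, the core of AU-rich elements, as did 67.5% of all genes. The count ran from 1 in EGR1 to 8 in KLF9, against a median of 2. Per kilobase, EGR1 (0.818) and EGR3 (1.07) lay below the median of 1.5 for all genes, and KLF5 (3.03) was the densest, at the 73.7th percentile. The longer word TATTTAT, searched on the same strand and containing ATTTA, occurred in KLF2, KLF5, KLF6 and KLF11 and in 31.5% of all genes. The windows below show ATTTA in capitals in the 3 KLF mRNAs whose decay is described most fully. They lie at chr10:3778791-3778820 (minus strand, KLF6), chr13:73076200-73076229 (plus strand, KLF5) and chr9:70387064-70387093 (minus strand, KLF9).
KLF6: gtATTTAcaaatataacacaacaATTTAac
KLF5: ctaggcaccatcATTTAatgtgacagtgtt
KLF9: agcagagtctgaATTTAtactaatcaagac

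The EGR1 promoter is shown for its known sites of SRF, which carries growth factor signals to this gene. The RefSeq window from 250 bases before to 50 after its start (chr5:138465229-138465528, plus strand) holds 2 CArG boxes, the SRF binding motif, beginning 105 and 83 bases before the start. They are in capitals.
EGR1: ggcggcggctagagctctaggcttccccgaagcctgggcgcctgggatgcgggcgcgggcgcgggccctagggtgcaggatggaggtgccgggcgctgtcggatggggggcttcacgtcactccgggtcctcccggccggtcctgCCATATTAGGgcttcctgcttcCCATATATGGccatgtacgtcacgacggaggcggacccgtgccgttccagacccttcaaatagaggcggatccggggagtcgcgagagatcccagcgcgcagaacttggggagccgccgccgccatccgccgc

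Of 35116 promoter windows of this length, 1.29% hold a CArG box on either strand. Among the members with a window searched, EGR2 held the only other one, in 1 of its 3 windows, and no KLF window had it. The cyclic AMP element TGACGTCA (either strand, 1.85% of all windows) was found in 1 of the 2 KLF11 windows only. The EGR motif GCGTGGGCG (either strand, 0.795% of all windows) was found in none of these windows, and CACCC, the letters KLF proteins read, was found on either strand in windows of EGR1, EGR2, KLF5 and KLF11 and in 59.9% of all windows.

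The RNA-seq libraries held 20.8 to 34.1 M counts and the BRIC-seq libraries 2.67 to 7.28 M, more at later times. MIR211 was counted 36 and 18 times in RNA-seq of the MIR211 line and 0 times in A375. Melanocyte markers were uneven in both lines. In total RNA SOX10 was at 135 to 231 CPM (counts divided by the scaled library size in M). MLANA and TYR were at 0 to 7 counts. With MITF, PMEL, DCT and S100B, the 7 markers summed to 484 to 489 CPM for A375 and 381 to 423 CPM for the MIR211 line. At an edgeR adjusted p under 0.05, 1 of 5 tested was lower in the MIR211 line (0.379% of all genes differed). In labelled RNA 2 of 6 were higher and 1 was lower (25.9% of all genes differed). Of the other cell types checked, leukocyte PTPRC and CD3E, endothelial CDH5 and PECAM1 and keratinocyte KRT5, KRT1 and DSG3 were at 0 in all RNA-seq libraries, and all 5 fibroblast markers had counts in both lines. Leukocyte LYZ was at 0.808 to 2.95 CPM in total RNA, keratinocyte KRT14 was counted in the MIR211 line alone (0.353 to 0.549 CPM), and the endothelial markers KDR and VWF summed to 3.58 to 9.18 CPM. In labelled RNA the 4 endothelial markers summed to 1.05 to 4.08 CPM for A375 and 27.2 to 46.3 CPM for the MIR211 line, with CDH5 and VWF at 0, and the 5 fibroblast markers to 2.3 to 14.3 and 26.7 to 147 CPM, with DCN at 0 in A375 and COL1A2 at 0 in the MIR211 line. LYZ, the only leukocyte marker counted there, was at 1.67 to 7.36 and 6.48 to 51.0 CPM. These sums differ between the lines as the KLF5 labelled level does, and their part in it was not tested.

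In total RNA, KLF9 and KLF2 were the members that stood apart between the lines, and neither passed the test. The comparison of the MIR211 line with A375 used edgeR's quasi-likelihood F test with p-values adjusted over 19258 genes, and an adjusted p under 0.05 counted as passing. It called 0.379% of genes and 0 of the 10 members, and 2107 genes had an unadjusted p under 0.05. The members' median log2 difference was 0.13, against -0.003 over all genes. KLF2, KLF9 and KLF11 were higher in both MIR211 libraries than in both A375 libraries, KLF10 was lower in both, and the other 6 overlapped. The share of all genes separated in this way was not computed. With 2 libraries per line, such separation describes single genes and is no result about the members. In such bulk RNA, fewer expressing cells and less RNA per cell cannot be told apart.

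KLF2 had 33 and 49 counts (1.62 and 1.70 CPM) for A375 against 249 and 222 (7.33 and 7.17 CPM) for the MIR211 line. The libraries of each line nearly coincided, and the gap between lines was 2.12 on the log2 scale (SE 0.24, 4.35-fold). The adjusted p was 0.0606 with edgeR. DESeq2 put it at 1.19e-05 and edgeR without the count filter at 0.0424, and over all alternatives it ran from 1.19e-05 to 0.225.

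KLF9, the most abundant member, stood at 89.9 and 67.2 CPM in A375 and at 181 and 180 CPM in the MIR211 line. Both MIR211 libraries lay above both A375 libraries. The difference was 1.2 (log2, SE 0.21, 2.3-fold), with an adjusted p of 0.117 in edgeR. Over the alternatives it ran from 0.000198 in DESeq2 to 0.401 in edgeR with a library left out. Its 3′ UTR carries a miR-211 seed match, and whether miR-211 acts on KLF9 or KLF11 was not tested. KLF11, which also carries one, was at 6.87 and 9.04 CPM in A375 and at 9.94 and 12.1 CPM in the MIR211 line (log2 difference 0.47, SE 0.25, edgeR adjusted p 0.608).

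**Figure D1:**
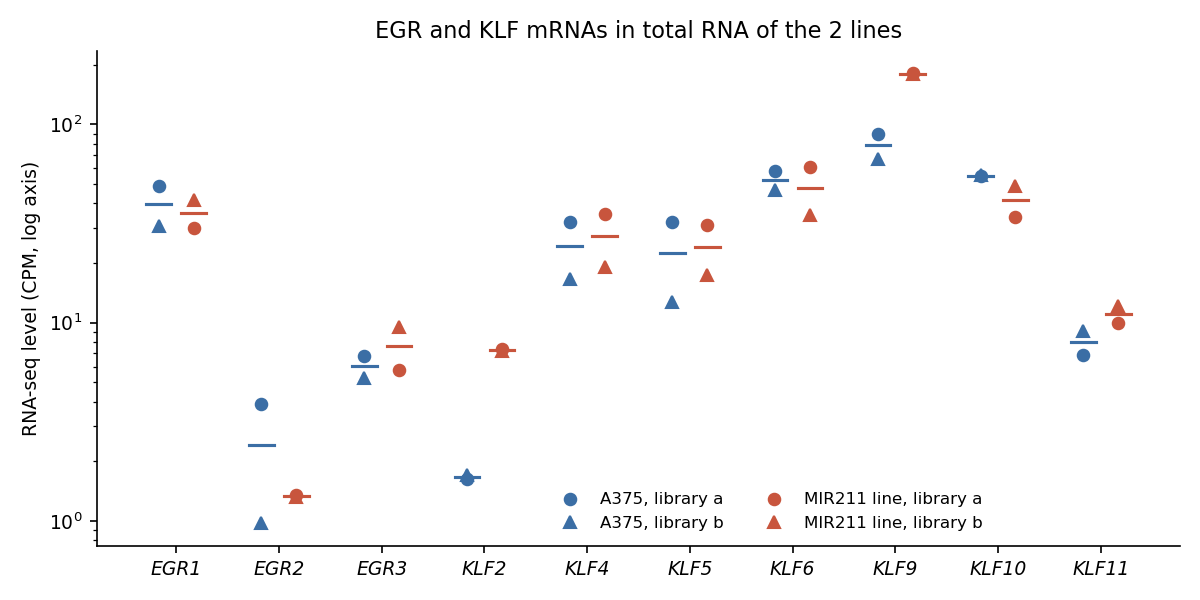
RNA-seq level (CPM, log axis) of the 10 members in each library: circles are library a, triangles library b, bars the mean of the 2. KLF2 and KLF9 show a gap between the lines wider than the spread within either, while KLF4, KLF5 and KLF6 lie higher in library a than in library b of both lines.

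The EGR genes overlapped between the lines. EGR1 was at 48.9 and 30.8 CPM in A375 and at 30.1 and 41.7 CPM in the MIR211 line (log2 difference -0.15, SE 0.31, edgeR adjusted p 0.938). EGR3 was at 6.82 and 5.25 CPM against 5.77 and 9.47 CPM, a difference of 0.34 (log2, SE 0.34). EGR2 was the lowest of the 3, at 3.88 and 0.97 CPM for A375 against 1.35 and 1.32 CPM for the MIR211 line, and its value of -0.84 (log2, SE 0.68) turned to 0.45 without library a of A375.

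Among the other KLF genes the larger contrast was between libraries a and b. KLF4 stood at 32.4 CPM in library a and 16.7 in library b of A375, and at 35.4 and 19.0 CPM in the MIR211 line. KLF5 was at 32.2 and 12.7 CPM in A375 and at 31.0 and 17.3 CPM in the MIR211 line. Both genes were therefore higher in library a of each line. The signs of the 6 overlapping members' line differences changed when single libraries were left out. For KLF4 and KLF5 the differences were 0.15 (SE 0.45) and 0.11 (SE 0.53) on the log2 scale. KLF6 was also higher in library a, at 58.0 and 47.0 CPM in A375 and at 60.9 and 35.1 CPM in the MIR211 line, a difference of -0.13 (log2, SE 0.31). KLF10 was at 54.7 and 55.8 CPM in A375 and lower, at 33.98 and 48.9 CPM, in the MIR211 line (log2 difference -0.41, SE 0.23, edgeR adjusted p 0.625).

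To order genes by abundance, counts were divided by exon length and scaled to the library (TPM). KLF9 had 21.3 ± 2.96 TPM (SD, n = 2) in A375 and 49.3 ± 2.5 TPM (SD, n = 2) in the MIR211 line. In A375, KLF10 followed KLF9 closely at 20.6 ± 1.64 TPM (SD, n = 2), then EGR1 at 17.9 ± 4.6 TPM (SD, n = 2) and KLF6 at 12.1 ± 0.99 TPM (SD, n = 2). KLF9, KLF10 and EGR1 were within each other's spread there. KLF4 (9.37 ± 3.68 TPM) and KLF5 (8.48 ± 4.75 TPM) also overlapped KLF6 and each other. KLF11 (2.48 ± 0.638 TPM), EGR3 (1.7 ± 0.201 TPM), EGR2 (0.904 ± 0.726 TPM) and KLF2 (0.839 ± 0.0857 TPM) formed the low end (all SD, n = 2). In the MIR211 line KLF9 was clear of all others, of which the next 2, EGR1 and KLF10, had 16.4 ± 4.65 and 15.5 ± 4.82 TPM (SD, n = 2). KLF2, last in A375, had 3.65 ± 0.157 TPM (SD, n = 2) there, level with KLF11 at 3.42 ± 0.665 TPM (SD, n = 2).

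Labelled RNA at 0 h was then set beside total RNA for each member. Recovery by the antibody depends on how newly made a transcript is and on how much BrU it holds. CPM values of the 2 tables were scaled separately, so only the ratio of labelled to total CPM relative to other genes was read. Its median over protein-coding genes at 1 CPM or more was 0.565 in A375 (12401 genes) and 0.567 in the MIR211 line (12421 genes).

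EGR3 and KLF5 were the members most enriched in labelled RNA. For EGR3 the 0 h level was 22.7 CPM for A375 and 26.1 CPM for the MIR211 line, 3.77 and 3.43 times its total RNA, at the 95.9th percentile of genes in both. KLF5 was at 1.52 times in A375 and 3.64 times in the MIR211 line, the 80.6th and 96.4th percentile. EGR1 was at 0.863 times in A375 and 0.233 in the MIR211 line, and KLF6 went the other way, at 0.483 and 0.847 times. KLF9 was at 1.18 and 0.61 times, and KLF10 at 0.586 and 0.637 times, close to the median gene.

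KLF4 and KLF11 lay below the median gene in both lines. KLF4 had 4 labelled counts for A375 and 8 for the MIR211 line, at 0.0476 and 0.0792 times its total RNA (11.4th and 14.7th percentile). KLF11 had 5 and 8 counts, at 0.183 and 0.196 times (25.1th and 25.7th percentile). KLF2 had 2 counts for A375 (0.351 times its total RNA), below the limit of 3 counts, which is 0.526 times its total RNA. Labelled KLF2 at 0 h is therefore not told apart between A375 and the MIR211 line. In the MIR211 line KLF2 was not detected in labelled RNA at any time, with limits (3 counts) of 0.512 to 0.808 CPM, and at 0 h this limit is 0.111 times its total RNA. EGR2 had 0 counts in all 8 BRIC-seq libraries, which allows up to 0.41 to 0.875 CPM. At 0 h the limits are 0.361 and 0.603 times its low total RNA, the latter above the median gene, so a ratio below the median was not detectable for EGR2 in the MIR211 line at this depth.

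**Figure D2:**
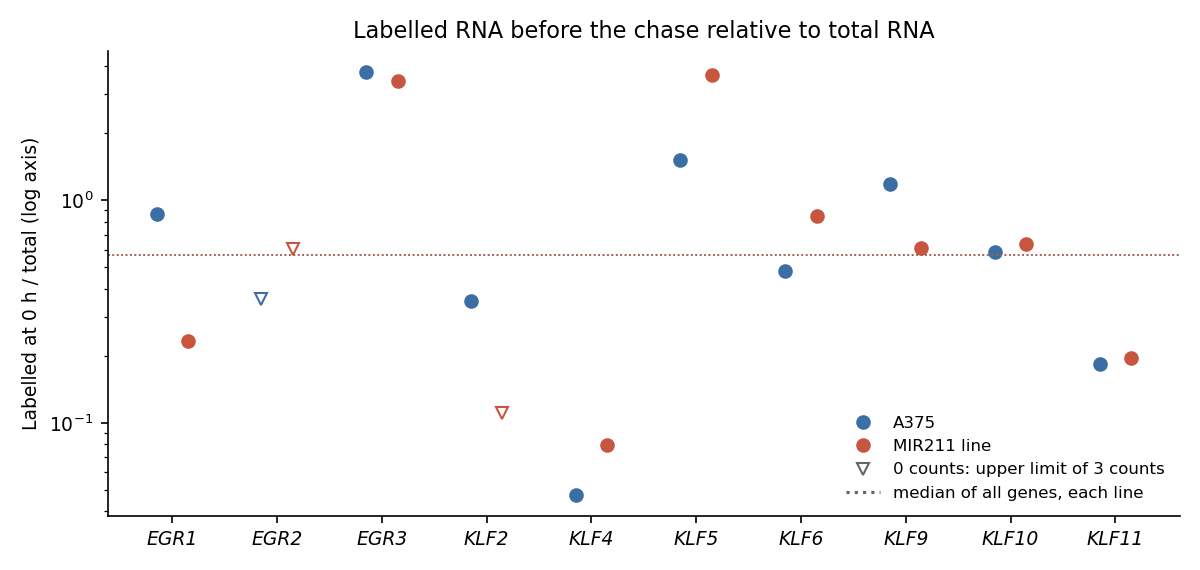
Ratio of labelled RNA at 0 h to total RNA (CPM over CPM, log axis) for each member in A375 (blue) and the MIR211 line (red). Open triangles are upper limits of 3 counts where none was counted, and dotted lines are the medians of all genes. EGR3 and KLF5 lie highest, KLF4 lowest, and KLF2 and EGR2 have no labelled counts in the MIR211 line.

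Uridine content moved with this ratio across genes. The Spearman correlation of the log2 ratio (0.5 counts added) with the uridine share of the transcript was 0.52 in A375 over 10668 genes of at least 5 CPM, and 0.57 in the MIR211 line over 10713. With log exon length it was 0.49 and 0.52. Genes share the same libraries and composition, so these values are a description. KLF2 and KLF4 had the lowest uridine shares of the members, 20.7% and 21.4%, against a median of 24.7% for all genes. KLF11, also below the median ratio, had the highest at 28.4%, and EGR3, the most enriched member in A375, had 24.4%. What part uridine content has in the members' ratios was not tested.

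Over the chase, all 6 testable members fell relative to the rest of labelled RNA. They were EGR1, EGR3, KLF5, KLF6, KLF9 and KLF10. EGR2, KLF2, KLF4 and KLF11 were below the count filter there. KLF6 met the filter only through its 0 and 1 h libraries, where it was highest, with 9 to 11 counts in each later library. Its fall in this and the later chase tests is therefore a description and no independent support. The slope over both lines, in log2 per hour of chase, was negative and passed for 6 of 6 (edgeR, adjusted over 13703 genes), where 34.4% of all genes passed as falling. Their median slope was -0.59, against -0.04 for all genes. A slope says how a transcript fared against labelled RNA after TMM scaling, which is not the library total, and is no absolute decay rate. The share of counts in mitochondrial MT-RNR2 rose from 7.38 to 7.71% at 0 h to 26.4 to 26.9% at 6 h, alongside the depth, and the part of these in the slopes was not tested.

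KLF6 had the steepest mean slope of the 6, -0.70 (SE 0.14, edgeR adjusted p 0.00252), at the 2.28th percentile of all genes from the steepest fall. Its entry through high 0 and 1 h counts alone limits what this rank means. KLF9 had -0.66 (SE 0.13), EGR3 -0.59 (SE 0.12) and KLF5 -0.58 (SE 0.11), all within the lowest 5.41% of slopes. These 4 lie within their SE of each other. KLF10 had -0.45 (SE 0.11, edgeR adjusted p 0.00776). EGR1 had the shallowest slope, -0.40 (SE 0.14, edgeR adjusted p 0.0338). It is the member whose call depended on single libraries: it was lost without either 1 h library, without the A375 library of 0 h or of 6 h, and without both 0 h libraries, at slopes of -0.35 to -0.42 and adjusted p of 0.0516 to 0.154.

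The members below the filter were tested only where an alternative let them in. Labelled counts of KLF4 at 0, 1, 3 and 6 h were 4, 11, 6 and 0 for A375 and 8, 15, 2 and 0 for the MIR211 line. KLF11 had 5, 0, 5 and 0 counts and 8, 22, 7 and 3. KLF4 was thus counted at 0 and 1 h in both lines and not at 6 h in either. With no count filter KLF4 also fell (slope -0.76, SE 0.20, edgeR adjusted p 0.0143), while KLF2 (-0.72, SE 0.33) and KLF11 (-0.40, SE 0.19) did not pass. In that fit 7 of 9 members passed as falling, where 5971 of 33416 genes did. KLF4 entered 5 of the 8 fits that left out 1 library and passed in each, at -0.68 to -0.97. KLF11 entered 1, without the A375 library of 1 h, and passed (-0.45, SE 0.15, edgeR adjusted p 0.0345). Both met the filter in these fits only through libraries of 0 and 1 h, where their levels were highest. Their passing there is therefore no support for a fall. With the 0, 1 and 3 h libraries alone KLF4 did not pass (-0.54, SE 0.27, edgeR adjusted p 0.158). EGR2, with no labelled counts, was tested in none.

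**Figure D3:**
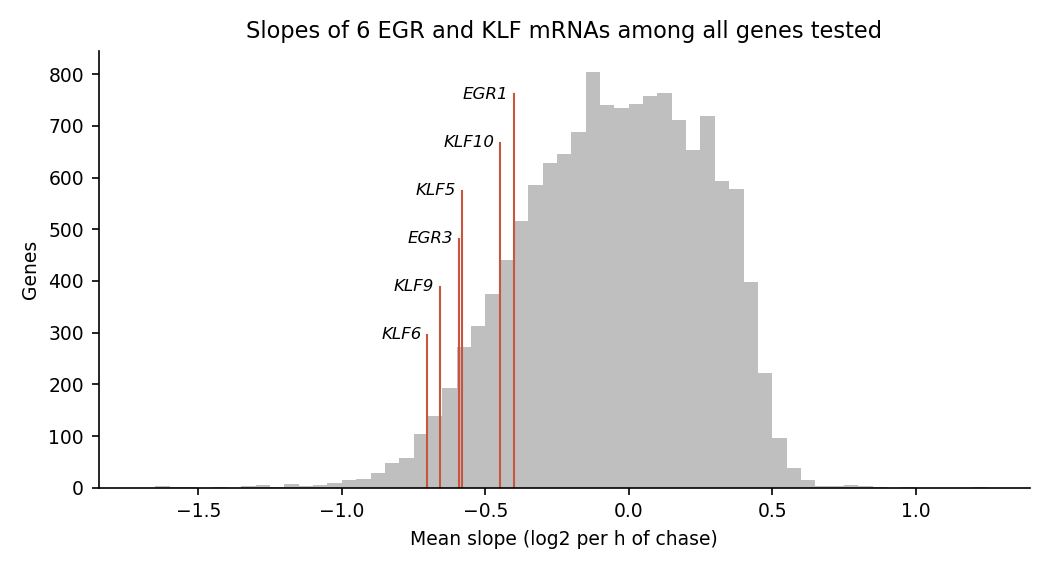
Histogram of the mean slope (log2 per h of chase, both lines) of all 13703 genes tested in labelled RNA, with the 6 tested members as red lines. KLF6, KLF9, EGR3 and KLF5 lie in the left tail and KLF10 and EGR1 further in, at the 11.8th and 15th percentile.

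The time courses show that the loss was not spread evenly over the chase. KLF9 in A375 was at 93.0 CPM at 0 h, 95.7 at 1 h, 9.29 at 3 h and 6.57 at 6 h. In the MIR211 line it was at 110, 107, 8.88 and 12.9 CPM. In both lines KLF9 therefore held its level for the first hour, was down to 9.99% and 8.06% of its 0 h level by 3 h and then stayed low. EGR3 did the same, at 22.7, 21.6, 2.87 and 2.79 CPM in A375 and at 26.1, 24.0, 2.73 and 3.15 CPM in the MIR211 line. KLF5 went from 34.1 and 38.3 CPM at 0 and 1 h to 6.42 and 4.38 CPM at 3 and 6 h in A375. In the MIR211 line KLF5 went from 88.0 and 103 CPM to 11.95 and 11.4 CPM. It was higher there than in A375 at each time.

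KLF6 was the exception in the first hour. It was at 25.4, 13.6, 1.23 and 2.19 CPM in A375 and at 40.7, 15.7, 1.88 and 2.43 CPM in the MIR211 line, so that 53.6% and 38.6% of the 0 h level was left at 1 h. The other 5 kept between 77.9% and 148% at that time. KLF10 was at 32.4, 26.4, 3.14 and 3.38 CPM in A375 and at 26.4, 23.8, 5.98 and 8.49 CPM in the MIR211 line. Its late levels were above those of A375 by 1.9 times at 3 h and 2.51 times at 6 h. EGR1 was at 34.4, 26.8, 2.32 and 4.18 CPM in A375 and at 8.35, 12.4, 2.56 and 5.10 CPM in the MIR211 line. The 95% counting intervals of EGR1 at 0 h were 28.5 to 41.2 and 5.67 to 11.8 CPM and did not overlap, while those at 3 and 6 h did. They cover counting error only, with 1 library each.

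**Figure D4:**
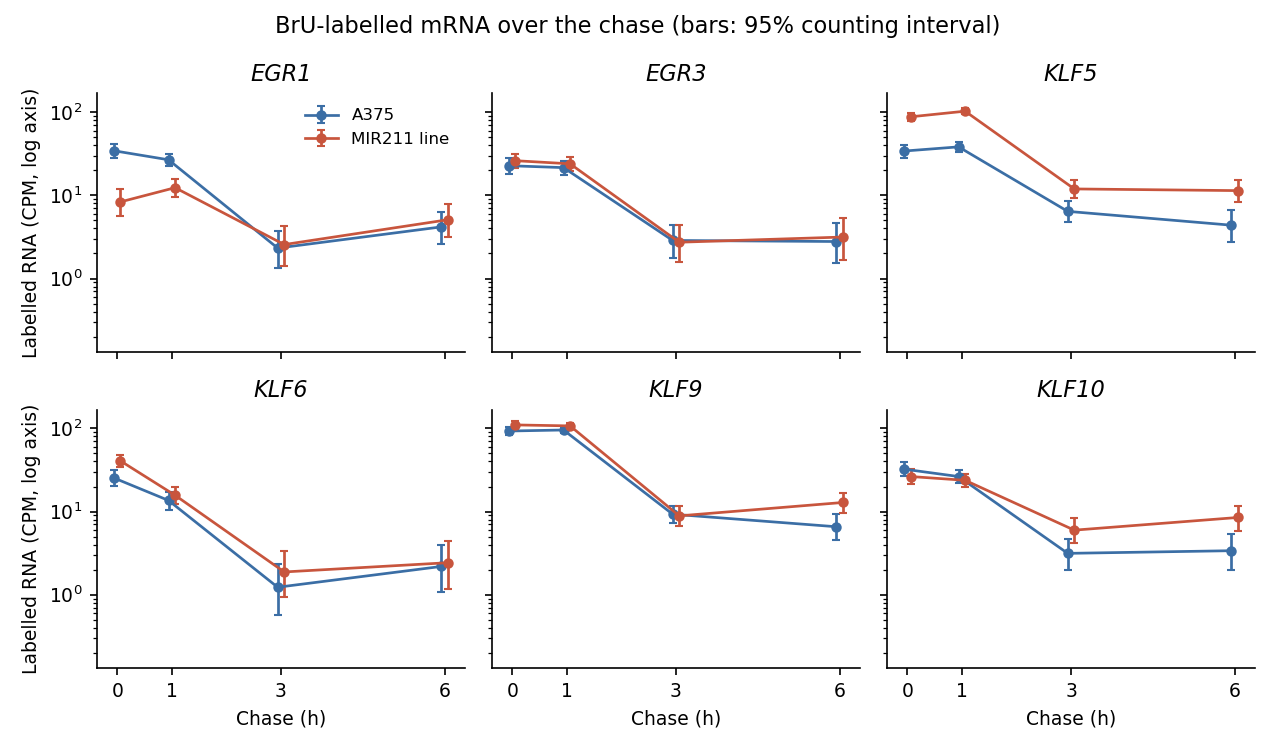
Labelled RNA (CPM, log axis) of the 6 tested members at 0, 1, 3 and 6 h of chase in A375 (blue) and the MIR211 line (red), 1 library per point, with exact 95% Poisson intervals for counting error. All 12 courses drop between 1 and 3 h, KLF6 also drops in the first hour, and the KLF5 curve of the MIR211 line lies above that of A375 throughout.

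A test of each step, over both lines, was added after these courses were seen. It uses the same libraries that prompted it, so it puts sizes and errors on the drop and gives no independent support. From 1 to 3 h all 6 members fell and passed in edgeR, against 16.1% of all genes falling. The drop was not particular to them. In this step 10 of 12 other immediate early genes tested (median log2 change -2.15) also passed as falling. So did 3 of 4 remaining KLF genes (median -1.40) and 2 of 2 TGF-beta inducible genes (median -1.87). KLF9 fell by 11-fold over that step (log2 change -3.46, SE 0.25), KLF6 by 9.45-fold (-3.24, SE 0.28), EGR3 by 8.02-fold (-3.00, SE 0.22), EGR1 by 7.56-fold (-2.92, SE 0.59), KLF5 by 7.2-fold (-2.85, SE 0.20) and KLF10 by 5.68-fold (-2.51, SE 0.43). All lay within the lowest 3.07% of genes for that step. EGR1 and KLF10 did not pass when any of the 4 libraries of 1 h or 3 h was left out.

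From 0 to 1 h none of the members passed, and neither did any gene (0% called, with 2238 genes at an unadjusted p under 0.05). KLF6 came nearest, at -1.14 (log2, SE 0.22, edgeR adjusted p 0.125), and DESeq2 called it among 551 genes in either direction (adjusted p 0.0262, the lowest of its alternatives, which reach 0.545). From 3 to 6 h again 0 of 6 passed, against 17.8% of genes falling, and the values ran from -0.30 for KLF5 to 0.94 for EGR1. This last step depends on the scale. With 9 glycolytic mRNAs held constant in place of the main TMM scaling, EGR3 (-1.48), KLF5 (-1.86), KLF6 (-0.96) and KLF9 (-1.52) passed as falling from 3 to 6 h. On library totals KLF5 alone passed there (-0.92, edgeR adjusted p 0.0253). The 1 to 3 h fall passed for all 6 on each of these scales. At 3 h the 12 courses held 4.62% to 30.7% of their 0 h level (median 10.2%), and at 6 h 5.97% to 61.1% (median 12.1%), both relative to scaled labelled RNA.

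**Figure D5:**
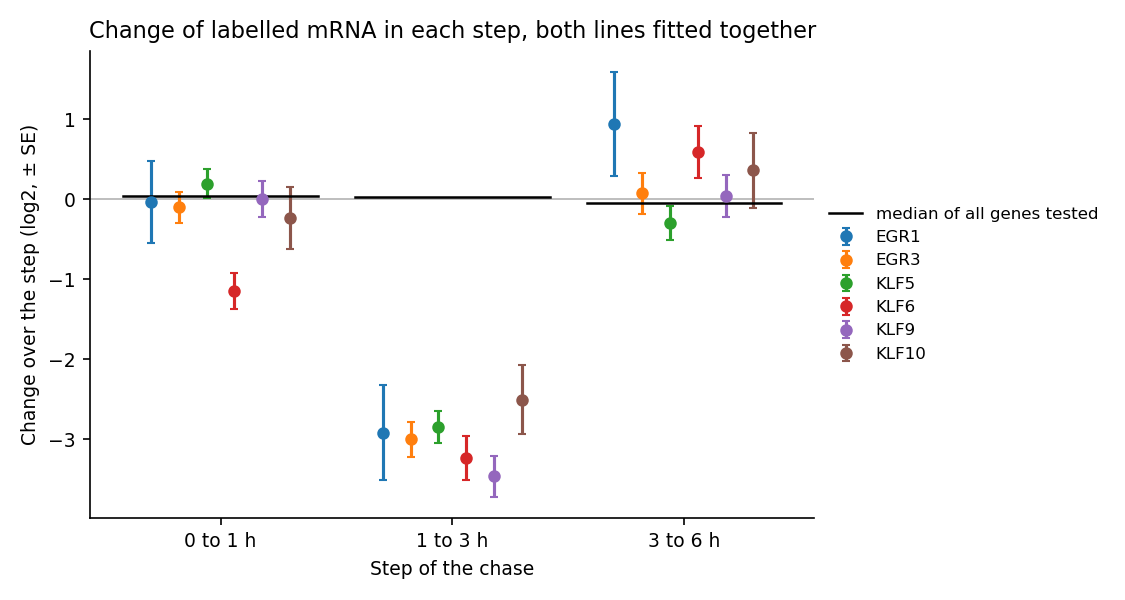
Change of labelled RNA (log2, ± SE, both lines fitted together) of the 6 tested members over each step of the chase, with the median of all genes tested as a black line. All members lie between -3.46 and -2.51 from 1 to 3 h, and between -1.14 (KLF6, 0 to 1 h) and 0.94 (EGR1, 3 to 6 h) over the other steps.

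Fitted in each line on its own slope, from the same 8 libraries, 6 of 6 members fell in A375 (24.2% of all genes falling) and 4 of 6 in the MIR211 line (21% of all genes falling). Without the 6 h library of a line no gene at all passed for that line. In A375 the slopes were close together, from -0.57 for EGR1 to -0.73 for KLF9. In the MIR211 line KLF6 (-0.74), EGR3 (-0.60), KLF9 (-0.59) and KLF5 (-0.58) fell, and KLF10 had -0.31 (SE 0.15, edgeR adjusted p 0.119) and EGR1 -0.21 (SE 0.19, edgeR adjusted p 0.396). That EGR1 and KLF10 passed in 1 line does not show a difference between lines. The difference of slopes, tested itself, passed for 0 of 6 members and for 0% of genes in edgeR (527 genes had an unadjusted p under 0.05, and DESeq2 called 14). It was 0.37 for EGR1 (SE 0.26) and 0.30 for KLF10 (SE 0.21), at the 97.2th and 95.8th percentile of all genes, and between -0.08 and 0.14 for the other 4. The calls within a line were lost with single libraries: without the line's own 0 h or 6 h library 0 members passed in that line, and without its 1 h library 2 passed in A375 and 1 in the MIR211 line. Some were lost without a library of the other line, since both share the fit. In A375 these were EGR1 without the MIR211 library of 0 h (edgeR adjusted p 0.0562) or 1 h (0.0517) and KLF6 without that of 1 h (edgeR adjusted p 0.0618), and in the MIR211 line KLF9 without the A375 library of 0 h (edgeR adjusted p 0.055). The slopes stayed below 0 where a call was lost, from -0.51 to -1.46.

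KLF5 was the member that differed between the lines in labelled RNA. With the 4 times matched and standing in for replicates, labelled KLF5 was 2.42-fold higher in the MIR211 line (log2 difference 1.28, SE 0.14, edgeR adjusted p 0.00177). It was 1 of 6 members to pass, where 25.9% of all genes passed in either direction. The ratio of the lines was 2.58 at 0 h, 2.69 at 1 h, 1.86 at 3 h and 2.61 at 6 h, so the MIR211 line was higher at 4 of 4 times. The call held in every alternative run for this comparison, at values of 1.19 to 1.47. In total RNA the KLF5 difference was 0.11 (SE 0.53). The total RNA and labelled tables were scaled separately, and the difference between them was not tested.

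The other 5 members did not pass. EGR1 had the largest value below 0, -0.85 (SE 0.41, edgeR adjusted p 0.179), from ratios of 0.243 at 0 h and 0.462 at 1 h that turned to 1.1 and 1.22 at 3 and 6 h. KLF9, higher in total RNA by 1.2, differed by 0.29 in labelled RNA (SE 0.17, edgeR adjusted p 0.254), with ratios between 0.955 and 1.96. KLF6 (0.43, SE 0.18), KLF10 (0.32, SE 0.30) and EGR3 (0.13, SE 0.15) were above 0 without passing.

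Relatives and partners of the 10 genes were read from lists, by their counts and by the genes of smallest p. For the counts below, 34.4% of all 13703 genes passed as falling in the chase and 4100 passed as rising. Of the remaining KLF genes, all 4 tested fell in the chase, including KLF7 (slope -0.50, SE 0.07), KLF3 (-0.44, SE 0.07) and KLF12 (-0.43, SE 0.06), with a list median of -0.47. Of the SP genes, zinc finger relatives of the KLF family, 3 of 4 fell, namely SP4 (-0.53, SE 0.06), SP1 (-0.43, SE 0.08) and SP3 (-0.36, SE 0.03). In the line comparison of labelled RNA, 3 of the 4 remaining KLF genes were higher in the MIR211 line, where 1864 of 13703 genes were. KLF7 differed by 1.67 (log2, SE 0.15, edgeR adjusted p 0.00103), KLF3 by 0.69 (SE 0.19) and KLF12 by 0.62 (SE 0.15). None of the 4 SP genes passed there. In total RNA 0 of 7 remaining KLF genes and 0 of 5 SP genes passed, and KLF7 had -0.93 (SE 0.30, edgeR adjusted p 0.369), the opposite sign to its labelled RNA.

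NAB1 and NAB2 are co-repressors that EGR proteins recruit, and NAB2 is itself an EGR target. Labelled NAB2 fell (slope -0.32, SE 0.09, edgeR adjusted p 0.0108), and NAB1 had -0.08 (SE 0.05). NAB1 was higher in labelled RNA of the MIR211 line (log2 difference 0.52, SE 0.12, edgeR adjusted p 0.0264). Of the KLF co-regulators, the deacetylase genes HDAC1 (slope 0.33) and HDAC2 (0.28) rose relative to labelled RNA. Of the 7 tested 3 fell, among them FBXW7 (-0.47), a ubiquitin ligase subunit that targets KLF5. These counts are near the shares of all genes (34.4% falling and 4100 of 13703 rising). Both HDAC slopes turned negative with glycolytic mRNAs held constant. SIN3A, the co-repressor of KLF10 and KLF11, was lower in labelled RNA of the MIR211 line by 0.57 (log2 difference -0.57, SE 0.11), and WWP1, a ubiquitin ligase for KLF5, was higher by 0.69 (SE 0.16).

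Upstream of the EGR genes, the SRF, ternary complex factor and ERK list had 5 of 12 genes falling and 3 rising in the chase. These counts are near the shares of all genes (34.4% falling and 4100 of 13703 rising). The SRF coactivator MRTFB fell (-0.47, SE 0.06), and the kinase genes MAPK3 (0.40, SE 0.04) and RPS6KA3 (0.18, SE 0.03) rose. The list median was 0.01. The ternary complex factor genes ELK3 (log2 difference 1.2, SE 0.12) and ELK4 (1.17, SE 0.25) were higher in labelled RNA of the MIR211 line. Of the ERK5 and MEF2 list, upstream of KLF2 and KLF4, 4 of 5 fell, with MEF2C at -0.49 (SE 0.07), and MEF2C was lower in labelled RNA of the MIR211 line (-0.80, SE 0.17). In total RNA MEF2C had 0.74 (SE 0.36, edgeR adjusted p 0.557), and none of the 13 and 5 genes of these lists passed.

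Other immediate early genes shared the fall of labelled RNA: 12 of 12 tested fell, with a median slope of -0.53. MYC had -0.84 (SE 0.09), a lower value than those of the 6 EGR and KLF genes, and the nuclear receptor genes NR4A2 and NR4A1 had -0.54 (SE 0.07) and -0.43 (SE 0.07). In total RNA 15 of 18 of these genes had values above 0, where 9548 of all 19258 genes did, and 0 passed. The genes share the same libraries, so this count is a description and no result about the list. Above 0 were FOSL1 (1.07, SE 0.27), NR4A3 (1.47, SE 0.39) and ZFP36 (1.04, SE 0.28), the last encoding a protein that binds AU-rich elements. In labelled RNA 2 of the 12 were higher in the MIR211 line, FOSL1 (1.33, SE 0.15) and CCN2 (3.54, SE 0.62). Another 3 were lower, among them IER3 (-0.95, SE 0.25). Of all 13703 genes, 1864 passed as higher there and 1682 as lower. Of the glucocorticoid responsive genes, read beside KLF9, 2 of 4 tested fell in the chase, where 34.4% of all genes did. These were SGK1 (-0.59, SE 0.08) and NFKBIA (-0.34, SE 0.09), and 1 of the 4 had a slope above 0. In total RNA 0 of 5 passed. Of the TGF-beta inducible genes, read beside KLF10 and KLF11, the 2 tested fell, TGIF1 (-0.63, SE 0.09) and SKIL (-0.36, SE 0.09).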

How the data were processed

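The authors deposited raw read counts per gene, 1 table for RNA-seq and 1 for BRIC-seq, made from stranded total RNA libraries per the labels. HISAT2 2.1.0 and StringTie are named in the submitters' processing notes. Those notes give hg19 and the design text hg38, so positions come from GENCODE 44 (hg38), which holds 56558 of the 60675 identifiers. No source used here gives the strand setting or the handling of multi-mapping reads, so overlapping and near-identical genes are uncertain. A BRIC-seq row naming no gene (0.000108% to 0.00122% of a library) was left out.

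Counts were tested with edgeR 4.0.16 (R 4.3.3; quasi-likelihood F test, TMM scaling, filterByExpr by line with a minimum count of 10 and total of 15), with Benjamini-Hochberg adjustment over all genes of a comparison. Residual degrees of freedom were 2 (RNA-seq), 5 (mean slope), 4 (slope per line) and 3 (line difference and steps). SE is the log2 value over the square root of F. Alternatives were DESeq2 1.42.0, other scalings and filters, and left-out libraries. Scripts were tested on simulated data.

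No label says that libraries a and b are separate cultures; their p-values then rest on a spread that may be technical. BRIC-seq has 1 library per line and time, and its spread is the scatter about each fit. Members and lists were chosen with earlier results of these data known. Named list genes are up to 3 per list with the smallest p in the comparison described. Some items are not reported here. Intervals and floors cover counting error only.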

Additional observations from a re-analysis of the deposited data

How the results depend on the processing

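EGR2, KLF2, KLF4 and KLF11 had too few labelled counts for the chase tests unless an alternative let them in. KLF4 and KLF11 passed in some, but with a library left out they entered only through their 0 and 1 h counts. With 1 library per line and time, slopes have no replicates. In total RNA, 748 genes passed with DESeq2, including 2 members (KLF2 and KLF9), and 237 with no count filter, including 1 (KLF2). With the library letter as a replicate block, 192 genes and 1 member passed (KLF2, 2.12, adjusted p 0.05). The letters share no stated culture or batch, and same-letter deviations correlated at 0.238, a value that 2 libraries per line force to be equal for both letters. Leaving out 1 RNA-seq library gave 0 to 15 genes and 0 members.

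All 6 tested members kept a negative mean slope under all 16 alternatives, and 5 of them passed under each; EGR1 was the exception. With the 0, 1 and 3 h libraries alone 5196 genes passed in either direction. Holding 9 glycolytic mRNAs constant moved the median slope of all genes from -0.0376 to -0.518 and the share of calls that fall from 53.5% to 99.9%, and library totals moved that share to 79.4%. On the glycolytic scale the slopes of MAPK3 (-0.07871), RPS6KA3 (-0.3047), HDAC1 (-0.1484) and HDAC2 (-0.2053) changed sign. It called 10849 genes for the A375 slope, 10945 for the MIR211 slope, 8267 from 1 to 3 h and 10062 from 3 to 6 h. In that last step it called 4 members, and EGR3 (-1.478), KLF6 (-0.9577) and KLF9 (-1.518) changed sign, while library totals called 1 member (KLF5).

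For the slope difference DESeq2 called 14 genes and no count filter 1. From 0 to 1 h DESeq2 called 551 genes and 1 member (KLF6), library totals 22 genes and a mean CPM of at least 5 called 26. From 1 to 3 h no count filter called 2346 genes. Leaving out 1 library at a time gave 0 to 6761 genes and 0 to 6 members for the A375 slope, 0 to 5870 genes and 0 to 5 members for the MIR211 slope, 1739 to 2861 genes for the line difference, 433 to 4086 from 1 to 3 h and 2172 to 5047 from 3 to 6 h. Fewer libraries entered those fits. For the changes under DESeq2 and other scalings and filters, the cause was not tested.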
